A study of Homo sapiens with 4 samples.

Results

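Translation factors are the proteins that load ribosomes onto mRNA, move them along it and release the finished chain. The genes described here are 50 of them: initiation factors (eIF), elongation factors (eEF), release and recycling factors and poly(A)-binding proteins. They were chosen by gene symbol, and 49 of the 50 were found among the 18917 genes of the count table and tested. EIF4A1, which encodes the main helicase of the cap-binding complex, was not analysed here. The remaining eIF2 subunit gene, EIF2S1, was not among the 50. RNA from HEK-293T, a transformed line grown from human embryonic kidney, was sequenced in 4 libraries, 2 from wild-type (WT) cells and 2 from THUMPD1 knockout (KO) cells. THUMPD1 is the adaptor that allows NAT10 to acetylate cytidine in certain tRNAs. Both genotypes were grown in DMEM with 10% serum and 2 mM glutamine, and no other treatment is named. The labels call the line HEK293. The KO line was made with CRISPR-Cas9 and sorted to single cells, so that genotype and clone cannot be told apart, and the labels do not say whether replicates were separate cultures. P-values therefore measure the spread between these libraries, which may be technical. In bulk RNA, fewer cells that express a gene and less RNA per cell cannot be told apart. The question put to the data was which of these genes had a different RNA level in cells without THUMPD1.

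Library totals ran from 7875722 to 11362363 counts, and 3 counts were worth between 0.259 and 0.391 CPM (the usual per-library unit, a count relative to the total count after TMM scaling). THUMPD1 itself had 356 and 468 counts in the WT libraries against 71 and 58 in the KO libraries, a log2 fold change of -2.93 (SE 0.17, adjusted p = 1.26e-12). Replicates of a genotype differed by more than sampling noise, with a chi-square per degree of freedom of 4.14 in WT and 7.2 in KO, so each library was kept as its own replicate. All 5 markers of HEK-293 cells exceeded 3 counts in every library, and their summed level was 609 to 619.8 CPM in WT and 477 to 506 CPM in KO. The lower sum in KO came from NEFM, a neurofilament gene at 184 and 177 CPM in WT and 26.3 and 23.0 CPM in KO (log2 fold change -2.87), while the other 4 markers (PAX2, LIN28B, VIM and EYA1) lay above 0 and did not pass. Of 9 markers of other cell types, 2 exceeded 3 counts in every library, COL1A1 (18.5 to 25.3 CPM) and COL3A1 (4.04 to 7.25 CPM). Another 3 (HBA1, KRT5 and S100A8) were at 0 throughout. The sum over the 9 was 25.8 to 29.97 CPM in WT and 24.95 to 28.6 CPM in KO.

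Initiation begins when eIF1, eIF1A, eIF3 and eIF5 bind the small ribosomal subunit together with eIF2, which brings the initiator tRNA. eIF2B recharges eIF2 with GTP, and eIF4F (the cap-binding protein eIF4E, the scaffold eIF4G and the helicase eIF4A) recruits the mRNA. eEF1A then delivers aminoacyl-tRNAs, eEF2 translocates the ribosome, and eRF1 and eRF3 end translation at the stop codon. Many mRNAs of this machinery begin with a C and a run of pyrimidines, the 5′ terminal oligopyrimidine (TOP) sequence, through which mTOR controls their translation.

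Translation factor genes moved in both directions in THUMPD1 KO cells. By edgeR's quasi-likelihood test at an adjusted p of 0.05, 11 of 49 were higher in KO (EIF1, EIF2S3, EIF3A, EIF3E, EIF3F, EIF3H, EIF3M, EIF4A2, EEF1A1, EEF2 and PABPC1), against 8.79% of all 13128 genes tested. Another 9 were lower (EIF5, EIF2B3, EIF3C, EIF3D, EIF3J, EIF4G1, EEF1A2, EEF2K and GSPT1), against 12.1% of all genes. The other 29 did not pass. Their log2 fold changes ran from -0.74 for GSPT1 to 0.86 for EIF5AL1 with a median of 0.05, beside 0.01 over all genes, and 28 of 49 lay above 0. The median was 0.02 without WT replicate 1, 0.10 without WT replicate 2 and 0.13 with library size alone, which moved the median of all genes to 0.09. The median difference between replicates was 0.01 in WT and -0.01 in KO. Abundant genes are called more often: of the 41 factor genes that averaged 50 CPM or more, 11 were higher and 7 lower, where 12.6% and 19.7% of all genes at that level were. The balance depended on the scaling. With library size alone it was 19 higher and 7 lower, while calls over all 13128 genes went to 2078 higher and 1160 lower. With limma-voom after quantile normalization, the method named in the study, it was 15 higher and 8 lower. Over all genes that fit called 1279 higher and 1349 lower, where the main fit called 1154 and 1594.

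**Figure D1:**
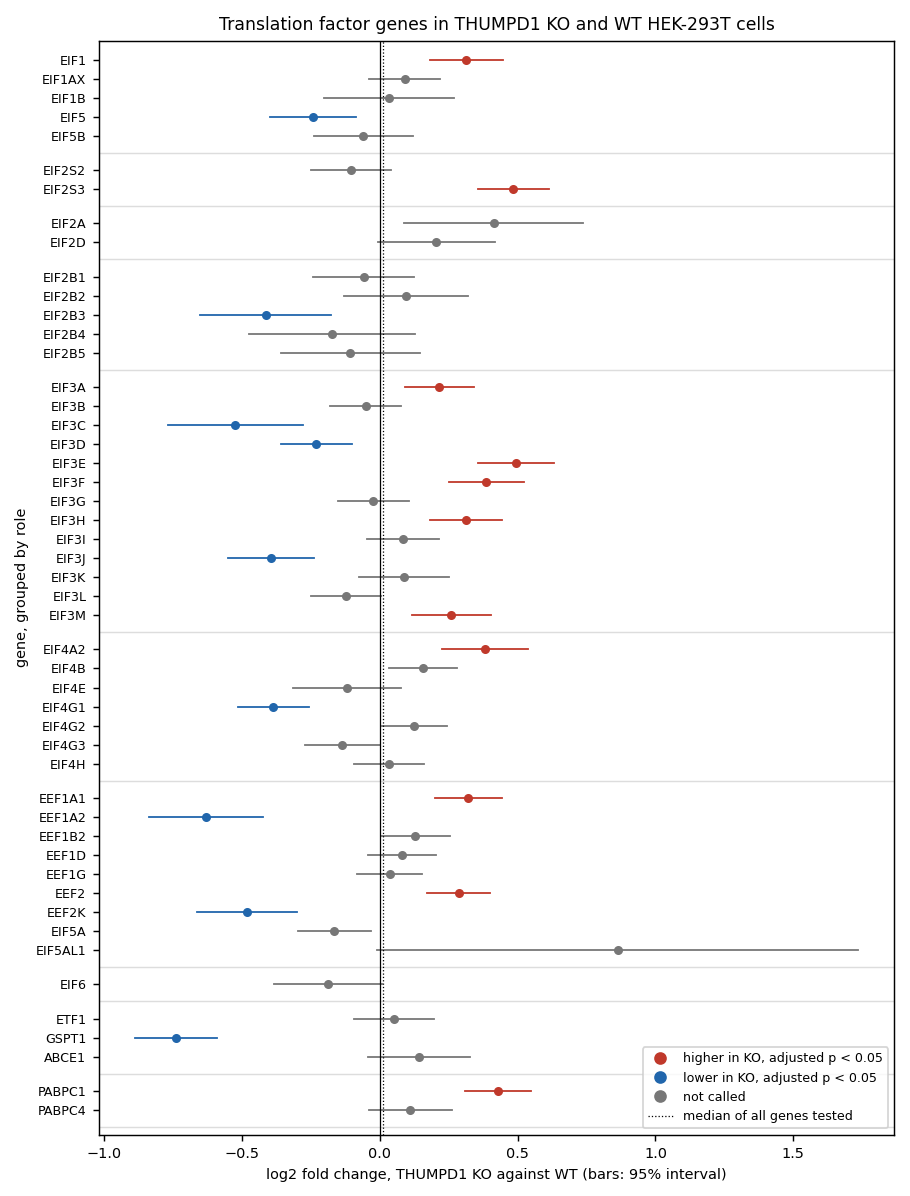
Log2 fold change (horizontal axis, KO against WT) of the 49 translation factor genes tested, grouped by role, with 95% intervals from edgeR as bars. Genes higher in KO (11) are red, genes lower in KO (9) are blue and genes that did not pass are grey, and the dotted line is the median of all genes tested.

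Among the factors that act on the scanning small subunit, EIF1 was higher and EIF5 lower in KO. EIF1, whose protein guards against initiation at wrong codons, had 178 and 173 CPM in WT and 217 and 219 CPM in KO (log2 fold change 0.31, SE 0.06, adjusted p = 0.000921). EIF5, whose protein triggers GTP hydrolysis by eIF2 at the start codon, had 153 and 139.7 CPM in WT and 118 and 129.7 CPM in KO (log2 fold change -0.24, SE 0.08, adjusted p = 0.0238). The genotypes did not overlap for either gene, which also held for genes that did not pass, such as EIF3G, EEF1G and EIF4H. The EIF5 call was lost without WT replicate 1 (log2 fold change -0.18, adjusted p = 0.157) and without KO replicate 1 (-0.17, adjusted p = 0.268), and also with DESeq2 (adjusted p = 0.075), with limma-voom (adjusted p = 0.0825) and with library size alone (-0.16, adjusted p = 0.127). EIF1AX, EIF1B and EIF5B did not pass, with log2 fold changes of 0.09, 0.03 and -0.06. EIF1B, a close paralog of EIF1, had 40.8 and 50.5 CPM in WT and 47.4 and 46.6 CPM in KO, overlapping between genotypes, with a 95% interval of the log2 fold change from -0.20 to 0.27.

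EIF2S3 had the second highest log2 fold change of the genes called. It encodes the gamma subunit of eIF2, which binds GTP and the initiator tRNA. Its level was 493 and 538 CPM in WT and 751 and 691 CPM in KO, 1.40-fold higher (log2 fold change 0.48, SE 0.06, adjusted p = 3.41e-06). EIF2S2, the gene of the beta subunit, was at 165 and 183 CPM in WT and 164 and 160.3 CPM in KO and did not pass (log2 fold change -0.10, 95% interval -0.25 to 0.04). The alternative carriers of initiator tRNA, EIF2A and EIF2D, had log2 fold changes of 0.41 and 0.20 and did not pass (adjusted p = 0.063 and 0.166). EIF2A had 20.1 and 17.1 CPM in WT and 26.2 and 22.9 CPM in KO. It passed with library size alone, with upper quartile scaling, with the replicate number as a block, and when WT replicate 1 was left out.

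The exchange factor eIF2B is built from 5 subunits, and 1 of the 5 genes passed. EIF2B3, the gene of the gamma subunit, had 50.2 and 46.5 CPM in WT and 34.1 and 38.4 CPM in KO (log2 fold change -0.41, SE 0.12, adjusted p = 0.011). Both KO libraries lay below both WT libraries, but the call was lost without WT replicate 1 (-0.36, adjusted p = 0.0548) and without KO replicate 1 (-0.33, adjusted p = 0.133). The other 4 lay between -0.17 (EIF2B4) and 0.10 (EIF2B2), with EIF2B5 at -0.11 and EIF2B1 at -0.06, a value that turned to 0.02 with library size alone. The median over the 5 was -0.11.

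eIF3 is the largest initiation factor, a scaffold of 13 subunits on the small ribosomal subunit, and its genes did not move as 1 block. Of the 13, EIF3A, EIF3E, EIF3F, EIF3H and EIF3M were higher in KO, EIF3C, EIF3D and EIF3J were lower, and EIF3B, EIF3G, EIF3I, EIF3K and EIF3L did not pass. The median log2 fold change was 0.08. EIF3E had the largest rise of all genes called, from 233 and 230.2 CPM in WT to 348 and 304 CPM in KO (log2 fold change 0.49, SE 0.07, adjusted p = 7.21e-06). EIF3F and EIF3H carry the MPN domains of the complex. EIF3F went from 198 and 188 CPM to 261 and 243 CPM (0.39, SE 0.07, adjusted p = 0.000115). EIF3H went from 193 and 191 CPM to 238 and 238 CPM (0.31, SE 0.06, adjusted p = 0.000821). In all 3 genes both KO libraries lay above both WT libraries, which describes genes already picked by the test.

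EIF3M, the partner of EIF3F and EIF3H in the same module, had 151 and 159.8 CPM in WT and 194 and 179 CPM in KO (log2 fold change 0.26, SE 0.07, adjusted p = 0.00869), and lost its call without KO replicate 1 (0.20, adjusted p = 0.133). EIF3A, the largest subunit and an organizer of the core, had 1075 and 1032 CPM in WT and 1175 and 1273 CPM in KO (0.22, SE 0.06, adjusted p = 0.011). It lost its call without WT replicate 2 (0.19, adjusted p = 0.0758) and without KO replicate 2 (0.16, adjusted p = 0.108). The PCI and MPN subunit genes EIF3A, EIF3E, EIF3F, EIF3H and EIF3M made up all the rises in eIF3, while the other PCI subunit genes were lower (EIF3C), or did not pass (EIF3K at 0.09 and EIF3L at -0.12).

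EIF3J, a loosely attached subunit that acts at the decoding centre, had 133 and 124 CPM in WT and 97.7 CPM in both KO libraries (log2 fold change -0.39, SE 0.08, adjusted p = 0.000475). EIF3C, another core organizer, had 45.3 and 54.8 CPM in WT and 33.4 and 36.7 CPM in KO (-0.52, SE 0.12, adjusted p = 0.00234), a call that was lost without WT replicate 2 (-0.37, adjusted p = 0.0729). EIF3C shares nearly all its sequence with its copy EIF3CL, so how the authors' counting split their reads is uncertain. EIF3D, a subunit that can bind the cap of some mRNAs, had 307 and 316 CPM in WT and 257 and 273 CPM in KO (-0.23, SE 0.06, adjusted p = 0.00903). Its call was lost without KO replicate 1 (-0.18, adjusted p = 0.129) and with library size alone (-0.15, adjusted p = 0.0834). EIF3I and EIF3B lay at 0.08 and -0.05. EIF3G lay at -0.02, a sign that turned with library size alone, as did that of EIF3B.

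Scaled to the length of the reference transcript, eIF3 subunit genes differed in level by over an order of magnitude within WT cells. That span was reached only with EIF3C, whose split of reads with EIF3CL is uncertain. EIF3G was highest at 220.5 ± 3.9 CPM per kilobase (SD, n = 2), followed by EIF3K (179 ± 21.7), EIF3D (166 ± 3.22), EIF3A (158 ± 4.5), EIF3L (154 ± 8.6) and EIF3I (146 ± 2.21). EIF3K and EIF3D, EIF3A and EIF3L, and EIF3L and EIF3I are neighbours that differed by less than the larger of their SDs. EIF3E (114 ± 0.929), EIF3B (83.8 ± 0.038), EIF3J (51.9 ± 2.46) and EIF3H (48.4 ± 0.249) were intermediate. EIF3M (30.8 ± 1.23), EIF3F (27.9 ± 1.01) and EIF3C (17.2 ± 2.3) were lowest. These levels depend on which transcript gives the length, and the reference transcripts of EIF3F and EIF3M are long (6920 and 5047 bases). Fold changes of a gene do not depend on it.

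**Figure D2:**
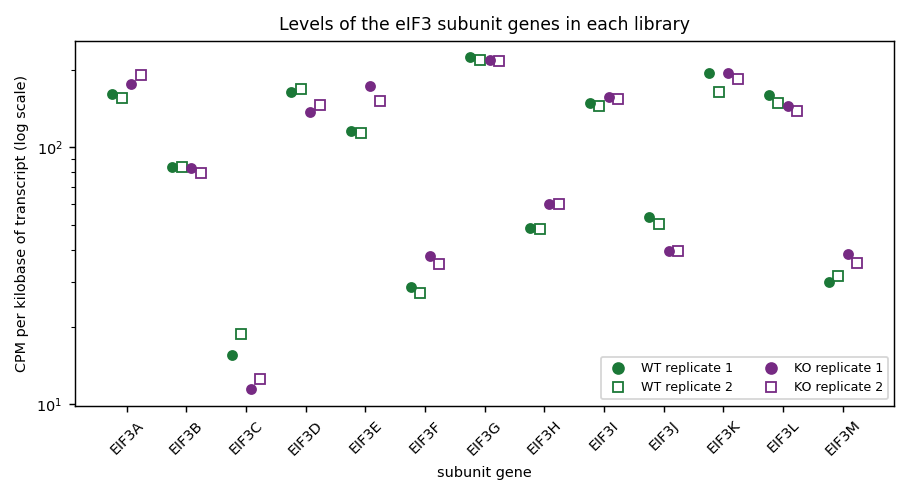
Level of each eIF3 subunit gene in each library, in CPM per kilobase of its reference transcript (vertical axis, log scale), with WT libraries in green and KO libraries in purple. EIF3E rises from 114 to 161 on average, EIF3J falls from 51.9 to 39.4, and EIF3G, at 220.5 and 217, stays the highest of the 13.

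Of the factors that recruit mRNA through its cap, EIF4A2 was higher and EIF4G1 lower in KO. EIF4A2, the second cytosolic eIF4A helicase gene, had 187 and 154 CPM in WT and 216 and 226 CPM in KO (log2 fold change 0.38, SE 0.08, adjusted p = 0.000663). The WT libraries of this gene lay further apart than those of most genes called, and leaving out WT replicate 2 brought the value to 0.24 (adjusted p = 0.0235). EIF4G1, the main scaffold of eIF4F, had 574 and 638 CPM in WT and 455 and 473 CPM in KO (-0.39, SE 0.06, adjusted p = 6.44e-05). The genotypes overlapped for neither gene, which describes genes already picked by the test.

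The relatives of EIF4G1 did not pass. EIF4G2, which encodes a scaffold that lacks the eIF4E-binding site, had 819.8 and 801 CPM in WT and 898 and 869 CPM in KO (log2 fold change 0.12, SE 0.06, adjusted p = 0.126). EIF4G3 had 192 and 197 CPM in WT and 182 and 172 CPM in KO (-0.14, SE 0.07, adjusted p = 0.153). The ratio of counts per kilobase of EIF4G1 to EIF4G2 was 0.492 and 0.559 in WT and 0.355 and 0.382 in KO, without overlap. The ratio of EIF4G1 to EIF4G3 was 3.54 and 3.82 in WT and 2.95 and 3.25 in KO, again without overlap. Both ratios share EIF4G1, a gene already called lower, so their lack of overlap is a description only. EIF4B and EIF4H, helpers of the helicase, had log2 fold changes of 0.16 (adjusted p = 0.0655) and 0.03, and EIF4E was at -0.12 with a 95% interval from -0.32 to 0.08. EIF4B passed with library size alone, upper quartile scaling, limma-voom, no filter and the replicate block, and when KO replicate 1 was left out.

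The largest share of factor reads came from elongation. The 49 genes took 2.02% of all counts in both WT libraries and 2.43% and 2.39% in the KO libraries, and the 9 elongation genes took 1.01% and 1.02% in WT against 1.26% and 1.23% in KO. EEF2, the translocase, was the most abundant with 4644 and 4787 CPM in WT and 5726 and 5770.1 CPM in KO (log2 fold change 0.29, SE 0.06, adjusted p = 0.000599). EEF1A1, the main carrier of aminoacyl-tRNA, had 2380.4 and 2290.2 CPM in WT and 2991 and 2843 CPM in KO (0.32, SE 0.06, adjusted p = 0.000278). Neither gene overlapped between genotypes, which describes genes already picked by the test. Under limma-voom with quantile normalization these log2 fold changes were larger, 0.94 for EEF2 and 0.72 for EEF1A1. With library size alone they were 0.37 for EEF2 and 0.405 for EEF1A1. EEF2 took 0.453% and 0.463% of all counts in the WT libraries and 0.595% and 0.589% in the KO libraries. The guanine nucleotide exchange subunits of eEF1, EEF1B2, EEF1D and EEF1G, did not pass, with 0.13, 0.08 and 0.04.

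EEF1A2 and EEF2K were lower. EEF1A2, the form of eEF1A that adult muscle and neurons use, had 66.3 and 71.5 CPM in WT and 43.1 and 46.2 CPM in KO, 1.55-fold lower (log2 fold change -0.63, SE 0.10, adjusted p = 5.36e-05). The ratio of EEF1A1 to EEF1A2 in counts per kilobase went from 18.1 and 16.2 in WT to 35.1 and 31.1 in KO. EEF2K, the kinase that inhibits eEF2, had 85.6 and 92.6 CPM in WT and 64.5 and 63.4 CPM in KO (-0.48, SE 0.09, adjusted p = 0.000268), while its substrate EEF2 was higher. EEF1A1 has many processed pseudogenes, and whether reads were shared with them was not tested.

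EIF5A, which helps ribosomes past stalling sequences such as runs of proline, had 418 and 443 CPM in WT and 363 and 405 CPM in KO and did not pass (log2 fold change -0.16, SE 0.06, adjusted p = 0.0677). It passed when WT replicate 1 (-0.21, adjusted p = 0.0331) or KO replicate 2 (-0.24, adjusted p = 0.0169) was left out, with TMM factors from genes outside chromosomes 16 and 22, with no filter and with the replicate block. EIF5AL1, an intronless copy of EIF5A, had the highest log2 fold change of all 49 and did not pass, since it rested on 16 and 28 counts in WT and 54 and 41 in KO (0.86, SE 0.42, adjusted p = 0.151, 95% interval -0.01 to 1.74). The ratio of EIF5A to EIF5AL1 per kilobase was 620.1 and 538 in WT and 241 and 326 in KO. At this depth reads of EIF5A placed on the copy would weigh heavily in its count, and this was not tested. EIF6, which keeps the large subunit from joining too early, lay at -0.19 (adjusted p = 0.164).

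**Figure D3:**
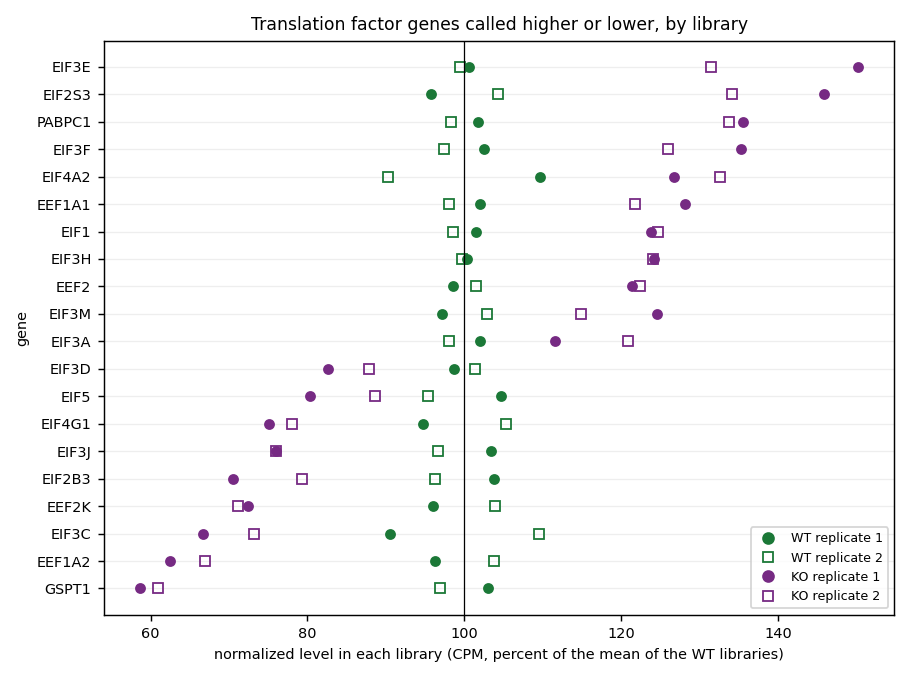
Level of the 20 translation factor genes called, in each library (horizontal axis, CPM as a percent of the mean of the WT libraries; circles and squares are replicates 1 and 2, green is WT and purple is KO). The KO libraries of all 11 higher genes lie to the right of both WT libraries, and those of all 9 lower genes to the left, with the lowest values for GSPT1. These genes were picked by the test on the same libraries, so the separation adds no support.

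GSPT1 was the lowest of all 49 genes. It encodes eRF3a, the GTPase that works with eRF1 at stop codons, and had 181 and 170.3 CPM in WT and 103 and 107 CPM in KO, 1.67-fold lower (log2 fold change -0.74, SE 0.07, adjusted p = 4.04e-08). The gene lies at chr16:11868128-11916082 on the minus strand (GRCh38). ETF1, the gene of its partner eRF1, did not pass with 140.5 and 150.1 CPM in WT and 150.3 and 151 CPM in KO (0.05, 95% interval -0.09 to 0.20). ABCE1, which splits ribosomes after termination, was at 0.14 (adjusted p = 0.286).

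PABPC1, the main cytosolic poly(A)-binding protein gene, had 1400.3 and 1354 CPM in WT and 1866 and 1842 CPM in KO (log2 fold change 0.43, SE 0.06, adjusted p = 6.29e-06). The replicates lay far closer together than the genotypes. Its share of all counts was 0.136% and 0.131% in WT and 0.194% and 0.188% in KO. PABPC4, a less abundant relative, had 154 and 176 CPM in WT and 173 and 184 CPM in KO and did not pass (0.11, SE 0.07, adjusted p = 0.296). The ratio of PABPC1 to PABPC4 per kilobase was 9.96 and 8.47 in WT and 11.8 and 11.0 in KO.

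**Figure D4:**
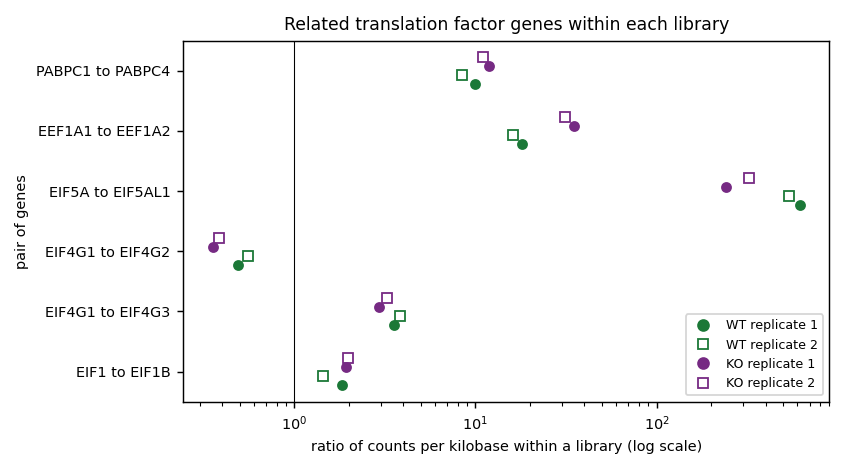
Ratio of counts per kilobase of related translation factor genes within each library (horizontal axis, log scale; green is WT, purple is KO). EEF1A1 to EEF1A2 moves from 18.1 and 16.2 in WT to 35.1 and 31.1 in KO, and EIF4G1 to EIF4G2 from 0.492 and 0.559 to 0.355 and 0.382.

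Gene position moved with several of the falls. The median log2 fold change was -0.44 over the 573 genes tested on chromosome 16 and -0.42 over the 311 on chromosome 22, against 0.03 for 12129 genes elsewhere, and 54% of the genes of these chromosomes were called lower. Of the 5 factor genes there, EIF3C, EEF2K and GSPT1 (chromosome 16) and EIF3D (chromosome 22) were lower, and EIF3L (chromosome 22, 427 and 395 CPM in WT, 384 and 369.6 CPM in KO) did not pass. Their median was -0.48. Against the median of their own chromosome, EEF2K lay at -0.04, EIF3C at -0.08 and GSPT1 at -0.30, while EIF3D and EIF3L lay above it by 0.18 and 0.29. On chromosome 16, 104 of 573 genes (18.2%) had a lower log2 fold change than GSPT1. THUMPD1, the edited gene, also lies on chromosome 16 (chr16:20702816-20742084, GRCh38). The other 44 factor genes held 11 that were higher and 5 that were lower (EIF5, EIF2B3, EIF3J, EIF4G1 and EEF1A2), with a median of 0.09. Of the 12129 genes tested outside these 2 chromosomes, 1132 were higher and 1105 lower. The part of the chromosomes in these values was not tested, and a property of the KO clone cannot be told apart from the genotype.

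Of the 11 genes that were higher in KO, 6 have a textbook TOP mRNA. The list of such factor genes holds 10, of which EEF1A1, EEF2, EIF3E, EIF3F, EIF3H and PABPC1 were higher, none was lower, and EEF1B2, EEF1D, EEF1G and EIF4B did not pass. At an unadjusted p under 0.05 edgeR, like DESeq2, gave 8 higher and 0 lower, and limma-voom called 9 higher and 0 lower. Over all 13128 genes limma-voom called 1279 higher and 1349 lower, and shares at an unadjusted p are not given here. The log2 fold changes of the 10 ran from 0.04 to 0.49 with a median of 0.30. All 10 stayed above 0 under all 8 alternative fits. The 39 other factor genes had 5 that were higher, 9 that were lower and a median of -0.05. Of those 9, EIF3C, EIF3D, EEF2K and GSPT1 lie on chromosomes 16 and 22, where no gene of the list lies. The part of gene position in the difference was not tested. This list was compiled with the fold changes known, so the difference is a description. Ribosomal protein mRNAs are the classic TOP mRNAs, and of the 75 cytosolic ribosomal protein genes tested 38 were higher and 6 lower, with a median of 0.17. Over all genes tested, 8.79% were higher and 12.1% lower.

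The annotated transcription starts were then read for the sequence itself. A start was counted when RefSeq's first base was C followed by at least 4 bases that are each C or T, on the strand of the transcript only. Windows of 30 bases, 10 before the start and 20 from it on (RefSeq, GRCh38.p14), are shown for the genes higher in KO that hold it, for EIF3D, the only lower one that does, and for 3 genes called without it. Capitals mark the C and the pyrimidine run after it.
EEF1A1 (higher, chr6:73521013-73521042, minus strand): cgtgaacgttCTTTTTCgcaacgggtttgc
EEF2 (higher, chr19:3985444-3985473, minus strand): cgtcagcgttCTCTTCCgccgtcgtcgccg
EIF2S3 (higher, chrX:24054946-24054975, plus strand): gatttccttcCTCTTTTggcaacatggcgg
EIF3F (higher, chr11:7987327-7987356, plus strand): cttccgcctcCTTCTTTCTCgacaagatgg
EIF3M (higher, chr11:32583821-32583850, plus strand): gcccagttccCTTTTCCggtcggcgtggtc
EIF4A2 (higher, chr3:186783567-186783596, plus strand): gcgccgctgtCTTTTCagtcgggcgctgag
EIF3D (lower, chr22:36529147-36529176, minus strand): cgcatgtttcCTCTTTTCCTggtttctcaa
EIF1 (higher, chr17:41688875-41688904, plus strand): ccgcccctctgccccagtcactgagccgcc
EIF3J (lower, chr15:44537137-44537166, plus strand): ccgccgtgctaactcctcgctagctctccc
EEF2K (lower, chr16:22206268-22206297, plus strand): gcccgcttctgctcaacctagaccagcccc
The first 7 windows carry the run directly at the annotated start, and the last 3 have no such C there.

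Of the 39 factor genes with an entry among these starts, 12 (30.8%) held the run, against 744 of 9926 tested genes (7.50%) and 1402 of all 27195 genes with an entry (5.16%). The 12 were EIF2S3, EIF2A, EIF2D, EIF3D, EIF3F, EIF3K, EIF3M, EIF4A2, EIF4B, EEF1A1, EEF1B2 and EEF2. Of these 6 were higher in KO and 1 lower, 11 lay above 0 and the median was 0.27. Of all tested genes with the run, 14.1% were higher and 11.2% lower, and their median was 0.05. The 27 without it held 1 that was higher (EIF1) and 7 that were lower, 11 lay above 0 and the median was -0.06. Of these 7, EIF3C, EEF2K and GSPT1 lie on chromosome 16, and EIF3D, the lower gene with the run, lies on chromosome 22. EEF1G, a textbook TOP gene, was among the 27 and did not pass. Over all 9182 tested genes without the run, 8.17% were higher and 12.3% lower, with a median of 0.01. Without the factor and ribosomal protein genes, 687 tested genes held the run, of which 11.2% were higher and 11.4% lower, with a median of 0.03. Of the 60 ribosomal protein genes with an entry, 22 of the 45 with the run were higher (48.9%, median 0.17) and 7 of the 15 without it (46.7%, median 0.16). These shares lay close together, but they depended on the limit. At 3 pyrimidines after the C they were 47.8% and 50%. At 6 they lay apart, with 21 of 35 higher with the run (60%, median 0.19) and 8 of 25 without it (32%, median 0.14). The 10 factor genes with no entry were EIF2S2, EIF3A, EIF3E, EIF3G, EIF3H, EIF3L, EEF1A2, EEF1D, PABPC1 and PABPC4. This definition was written after the values were seen. A run of pyrimidines at an annotated start is a description of sequence, and absence says only that these letters were not at the listed positions.

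**Figure D5:**
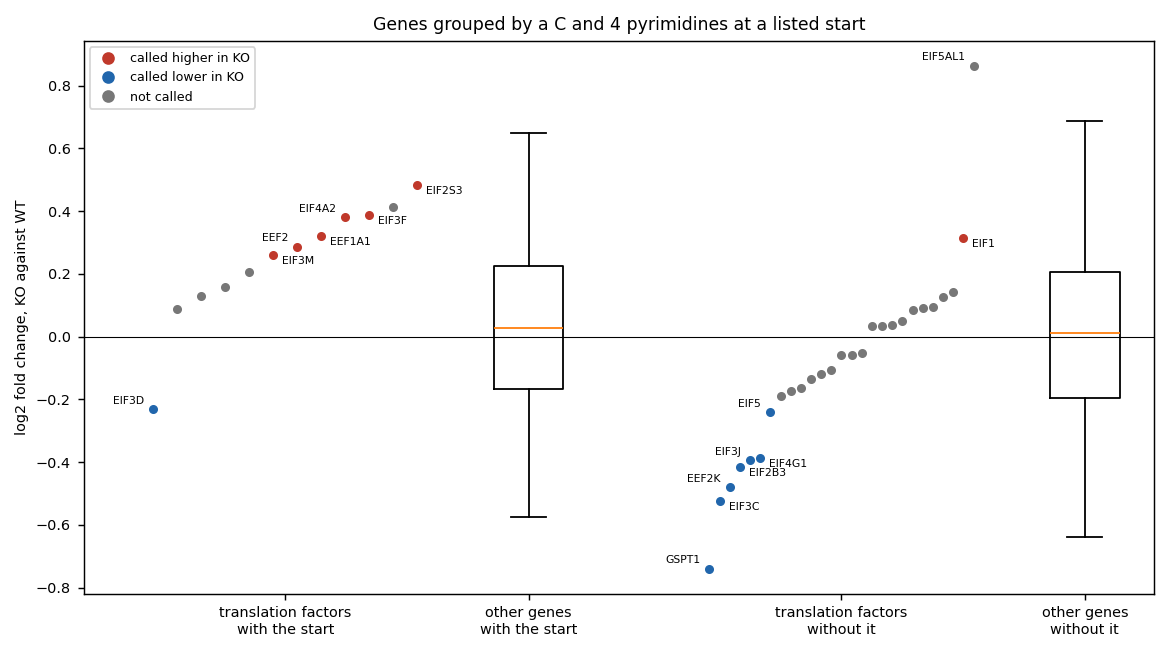
Log2 fold change (vertical axis, KO against WT) of factor genes with the pyrimidine run at a listed start (12 points) and without it (27 points), beside boxes for the other genes of each kind without ribosomal protein genes (line, median; box, quartiles; whiskers, the 5th and 95th percentiles). In the first group 11 of 12 factor genes lie above 0, with a median of 0.27, and in the second 11 of 27, with a median of -0.06.

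The other genes of the pathway were read from lists drawn up beside the 49. Of 26 further cytosolic factors and regulators tested, 1 was higher (EIF4EBP2, which encodes a repressor of eIF4E, 0.23, adjusted p = 0.00756) and 3 were lower, with a median of 0.04. The lower ones were EIF4E2 (-0.26, adjusted p = 0.0421), EIF4ENIF1 (-0.38, adjusted p = 0.00985, on chromosome 22) and DENR (-0.19, adjusted p = 0.0302). Of 12 mitochondrial translation factors, MTIF2 (0.31), C12orf65 (0.44) and GUF1 (0.35) were higher, none was lower, and the median was 0.16. At an unadjusted p under 0.05 edgeR gave 4 higher and 2 lower, and DESeq2 called 1 higher and 0 lower and limma-voom 3 and 0. Over all 13128 genes DESeq2 called 643 higher and 1112 lower, and limma-voom 1279 and 1349. Shares of all genes at an unadjusted p are not given here. Beside both lists, 8.79% of all genes tested were called higher by edgeR and 12.1% lower.

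Of 15 enzymes that modify translation factors, none was higher and 4 were lower, against 8.79% and 12.1% of all genes tested. The median over the 15 was -0.22. At an unadjusted p under 0.05 edgeR gave 0 higher and 6 lower, and both DESeq2 and limma-voom called 0 higher and 4 lower. Over all 13128 genes DESeq2 called 643 higher and 1112 lower, and limma-voom 1279 and 1349. Shares of all genes at an unadjusted p are not given here. DOHH, which completes the hypusine residue of eIF5A, had 30.5 and 34.4 CPM in WT and 15.8 and 17.9 CPM in KO (log2 fold change -0.95, SE 0.15, adjusted p = 4.36e-05). DPH2, a gene for the synthesis of the diphthamide that eEF2 carries, had 40.8 and 45.3 CPM in WT and 28.0 and 31.5 CPM in KO (-0.54, SE 0.12, adjusted p = 0.00257). FAM86A, the eEF2 lysine methyltransferase gene on chromosome 16, had 16.9 and 15.4 CPM in WT and 9.06 and 7.32 CPM in KO (-0.97, SE 0.21, adjusted p = 0.00151), and its reads may be shared with other FAM86 genes and pseudogenes. METTL13, which methylates eEF1A, was the fourth (-0.42, adjusted p = 0.00266). In each of the 4, both KO libraries lay below both WT libraries, which describes genes already picked by the test.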

How the data were processed

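Total RNA from 4 libraries (2 WT, 2 THUMPD1 KO) was sequenced paired-end after ribosomal RNA depletion with a Zymo RiboFree kit, per the labels; the paper's methods describe another kit and more samples per genotype. The deposited values are raw counts, 1 whole number for each gene symbol and library, with no normalization by the authors. The submitters' processing notes name hg19, while the paper's RNA-seq methods name STAR, RSEM and GRCh38, so the pipeline behind the counts is uncertain, and the strand setting is not given in the sources used here. The authors' own comparison of KO with WT, a table of fold changes and p-values, was not used.

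Counts were tested in R 4.3.3 with edgeR 4.0.16 (glmQLFit, glmQLFTest, TMM) on the 13128 genes that reached 1 CPM in 2 or more libraries. P-values were adjusted over all of them by Benjamini-Hochberg and called at 0.05. With 2 libraries per genotype an exact permutation test of 1 gene cannot go below 0.333, so adjusted p-values come from the model across all genes. For the same reason, a lack of overlap between genotypes is a description only, and its share over all genes was not counted. The test was checked on simulated data. The 95% intervals of fold changes come from that fit and include the spread between libraries, while the floor of 3 counts covers counting error only. Alternatives were library size alone, upper quartile, TMM without chromosomes 16 and 22, DESeq2 1.42.0, limma-voom 3.58.1 with quantile normalization, other filters, a threshold of 0.01, the replicate block, and leaving out each library. The differences between replicates 1 and 2 had a correlation of 0.0258 between WT and KO over the genes tested. Genes of low count weigh equally in this value, so it cannot exclude an effect shared by same-numbered libraries.

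GENCODE 44 placed genes on GRCh38, 17284 by symbol and 1204 by synonym, and lengths are those of the Ensembl canonical transcript. Starts came from RefSeq. All 50 genes are named. Values in every library are given for genes called whose log2 fold change was 0.3 or more in size, for related pairs, and for the highest and lowest, with others chosen after their values were seen; pathway genes were named from 0.5. Those below that size were added as the lists had few calls. The members, their roles and the lists were chosen with earlier results of these data known, and the start sequence and the limit of 50 CPM after values were seen. Python 3.11.15, pandas 2.3.3, NumPy 2.4.6 and matplotlib 3.10.9 served for tables and figures.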

Additional observations from a re-analysis of the deposited data

How the results depend on the processing

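With library size alone in place of TMM, 19 translation factor genes were called higher, against 11, and the median of all genes moved from 0.01 to 0.09. Calls of higher over all genes rose with it, from 1154 to 2078. The median of the factor genes ran from 0.03 to 0.13 over the 8 alternative fits and from 0.02 to 0.10 without a replicate. Under the other 7 alternative fits 11 to 15 were higher and 8 to 10 lower, and all 11 higher genes kept their call in each of the 8. Without a replicate, 10 to 12 were higher and 6 to 10 lower. At a threshold of 0.01, 10 were higher and 7 lower. With the replicate block, 13 were higher and 10 lower, where 1396 and 1826 of all genes were, against 1154 and 1594 in the main fit. EIF2A, EIF4B and EIF5A were gained and none lost. Signs turned only in genes that did not pass. With library size alone they were EIF2B1 (0.0245), EIF3B (0.0333), EIF3G (0.0601) and EIF5B (0.025), and EIF3G also reached 0.0013 with upper quartile scaling and 0.0203 with limma-voom. Leaving out a library gave ranges of -0.10 to 0.21 for EIF1B, -0.18 to 0.0585 for EIF2B1, -0.0365 to 0.21 for EIF3K and -0.20 to 0.11 for EIF5B. The cause was not tested.

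Of the 20 genes called, EIF1, EIF2S3, EIF3E, EIF3F, EIF3H, EIF3J, EIF4A2, EIF4G1, EEF1A1, EEF1A2, EEF2, EEF2K, GSPT1 and PABPC1 kept their call under all 8 alternative fits and without any 1 library. Where 1 library of a genotype was left, it was assumed to vary like the others. Depth limits EIF5AL1 most, at 16 to 54 counts a library.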

Other observations

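Several translation factor genes hold small nucleolar or Cajal body RNAs within their span on the same strand. Introns were not told apart from exons here. By GENCODE 44, 9 of the 49 genes tested (18.4%) are such hosts, against 237 of 13013 placed genes tested (1.82%). The hosts were EIF1AX, EIF5, EIF3A, EIF4A2, EIF4G1, EIF4G2, EEF1B2, EEF2 and PABPC4. Of these 3 were higher in KO (EIF3A, EIF4A2 and EEF2), 2 were lower (EIF5 and EIF4G1) and 4 did not pass. Over all hosts tested, 44 were higher and 41 lower. Total RNA libraries hold reads from introns and their small RNAs, and whether such reads entered these counts was not tested.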
